A study of Mus musculus with 8 samples.

Results

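Complement is a cascade of plasma proteins and cell surface receptors that tags cells and debris for clearance, and 9 of its genes were followed here in the mouse heart. They were chosen by name from a table of 55487 genes, not by a cut on their values, but with earlier results of these data known. C1qa, C1qb and C1qc encode the chains of C1q, the recognition molecule of the classical pathway. C1ra and C1s1 encode the proteases that ride on C1q, and Serping1 encodes the C1 inhibitor that shuts those proteases off. C4b and C3 encode the thioester proteins that the cascade cleaves and deposits, and Cfb encodes factor B, the protease of the alternative pathway. Enough reads for a test were found for 8 of the 9, and Cfb had 2 reads in all libraries together.

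The libraries were made from hearts of db/db mice, which lack a working leptin receptor and become obese and diabetic. All 8 libraries share that genotype, so the design holds no lean control. In 4 of them the mice had been given vehicle, and in the other 4 DIZE, an abbreviation that the labels do not spell out and that commonly stands for diminazene aceturate. The labels give no dose, length of treatment, age or sex, and they do not say whether each library came from its own animal, so p-values measure only the spread between these samples. Poly(A) RNA of the whole tissue was sequenced, and in such bulk samples fewer cells of a type and less RNA per cell cannot be told apart.

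Libraries held between 7447664 and 10161623 counts, and 13648 genes were tested. As a check of the heart label, the summed level of 8 cardiomyocyte markers was 26728 to 45193 CPM. CPM are counts scaled to a common depth over the reads in tested genes, with the library's TMM factor as a correction for composition. Of the vehicle libraries, 3 stood apart. Vehicle 1 had the lowest cardiomyocyte sum and the highest macrophage sum, 476.4 CPM against 285.8 to 357.8 CPM elsewhere. It also had the highest sum of atrial markers, 824.1 CPM. Vehicle 4 was next in the atrial sum at 327.7 CPM, with 13.6 to 130.5 CPM in the other libraries. Vehicle 2 carried liver transcripts, with 1965 CPM over 9 hepatocyte markers against 8.72 to 37.6 CPM in the others. Vehicle 4 had 3022 CPM of interferon gamma response genes against 206.8 to 510.8 CPM in the others.

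In the classical pathway, C1q binds antibody or other ligands, C1r then activates C1s, and C1s cleaves C4 and C2 so that a convertase forms and splits C3. The alternative pathway joins at C3 through factor B and amplifies the deposit. The liver makes most plasma complement, while in tissue macrophages are the main source of C1q and fibroblasts and other stromal cells make C1r, C1s, C3, C4 and the C1 inhibitor.

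For reading across genes, levels were divided by the exonic length of each gene, taken over all its annotated transcripts. Serping1 stood first with a mean over the 8 libraries of 94.2 CPM per kb, then C1qb with 69.6, C1qa with 65.6, C3 with 52.2 and C1qc with 38.7 CPM per kb. C1ra followed with 9.89, C4b with 9.83, C1s1 with 8.67 and Cfb with 0.0115 CPM per kb. Each neighbour in that order overlapped the next over the libraries, except at 2 steps. The lowest C1qc library, at 32.1 CPM per kb, lay above the highest C1ra library at 12.5 CPM per kb. The lowest C1s1 library, at 6.14 CPM per kb, lay above every Cfb value. The place of Cfb is uncertain, since 79.5% of its exonic bases are shared with another gene model and reads there may not be counted. On this scale the C1 inhibitor and the C1q chains stood above the proteases C1r and C1s in every library.

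Taken as a set of counts, 7 of the 8 tested components were lower in DIZE and C3 was higher, while 4 of 8 were lower without vehicle 4 and 5 of 8 without DIZE 2. Their median log2 fold change was -0.18 beside -0.01 over all tested genes, of which 51.81% were lower in DIZE. None changed at a threshold of 0.05 on Benjamini-Hochberg adjusted p from the quasi-likelihood test of edgeR, fitted on the whole table, and DESeq2 and limma-voom called 0 of them as well. Over all genes, 5 passed, or 0.0366%. At an unadjusted p under 0.05 the 3 C1q genes lay lower, beside 1404 genes (10.3%) lower over the whole table. None of the 8 separated the groups, whereas 718 tested genes (5.26%) had every DIZE library below every vehicle library. The 3 C1q genes differed most in relative terms, and their differences were about the size of the vehicle group's SD.

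**Figure D1:**
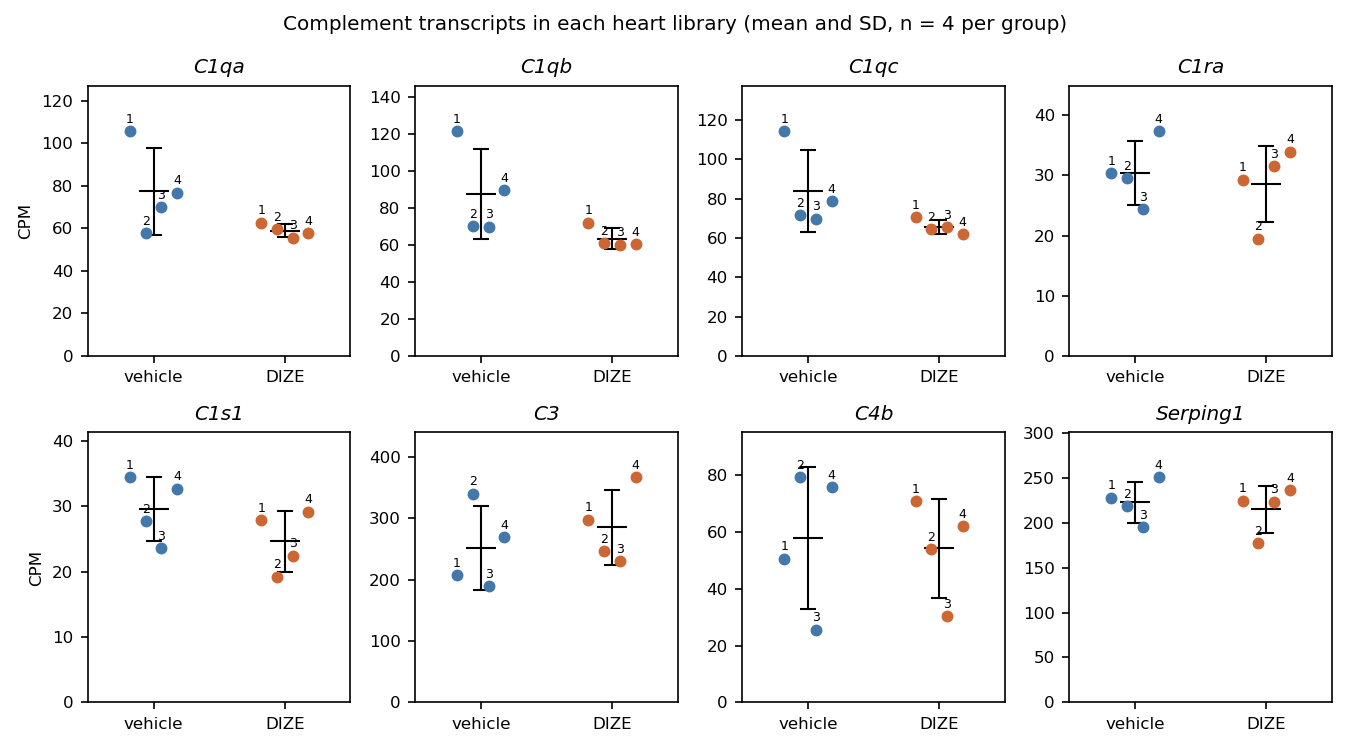
Level in CPM (vertical axes, from 0) of the 8 tested complement genes in each vehicle and DIZE library, with library numbers beside the points and bars for the mean and SD of 4 libraries. Vehicle 1 stands highest in the C1q panels, at 105.8 CPM for C1qa, and the 2 groups overlap in each panel.

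The C1q genes lie side by side on chromosome 4, all on the minus strand (GRCm38). C1qb (ENSMUSG00000036905) spans 136880129 to 136886187, C1qc (ENSMUSG00000036896) 136889804 to 136893065, and C1qa (ENSMUSG00000036887) 136895917 to 136898803. They are usually expressed together, since a C1q molecule needs all chains. The sequence that RefSeq gives upstream of a start was searched on both strands for a pair of interferon motifs and for the NF-kB consensus, because the 3 genes moved together across libraries and interferon response genes differed between libraries. The 250 bases before the C1qb start, chr4:136886201-136886450 on the minus strand (GRCm38.p6), are shown for the gene with the largest difference, and they held none of the 3 motifs, so no base is in capitals.

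C1qb upstream: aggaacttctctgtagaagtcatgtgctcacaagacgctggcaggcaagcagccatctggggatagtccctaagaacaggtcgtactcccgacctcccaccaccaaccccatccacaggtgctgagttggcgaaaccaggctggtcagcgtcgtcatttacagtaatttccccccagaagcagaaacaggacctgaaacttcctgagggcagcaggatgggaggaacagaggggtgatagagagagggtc

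RefSeq windows of 300 bases, 250 before and 50 after a start, were at hand for 5 of the 9 genes, namely C1qb, C1qc, C1ra, C1s1 and C3. The interferon gamma motif GAS, TTCNNNGAA, was in 8.3% of the 32851 windows of all genes, the core of the interferon-stimulated response element, GAAANNGAA, in 8.56%, and the NF-kB consensus in 5.8%. Among the 5 genes, C1qc held an NF-kB match, GGGGCTCTCC, at -41 to -32 from the start. C1ra held a GAS match, TTCCCTGAA, at 33 to 41 after the start, which reads as the motif on both strands. C1qb, C1s1 and C3 held none of these letters in the window. The RefSeq starts of C1qc and C1ra lie inside the gene spans given here. Both matches therefore lie within those spans and not upstream of them. The matches are descriptions of sequence only.

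C1qa was at 105.8, 57.6, 69.9 and 76.8 CPM in vehicle 1 to 4 and at 62.8, 59.6, 55.6 and 57.8 CPM in DIZE 1 to 4. Vehicle 1 was high, the DIZE libraries lay close together, and vehicle 2 sat among them, so the groups overlapped. The means were 77.5 ± 20.5 and 58.9 ± 3.03 CPM (SD, n = 4 each), a DIZE mean of 0.76 times the vehicle mean, with a log2 fold change of -0.40 ± 0.17 (SE, edgeR adjusted p = 0.224). The vehicle group varied with a coefficient of variation of 26.4%, the DIZE group with 5.14%.

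C1qb was at 121.8, 70.3, 70.0 and 89.7 CPM in vehicle and at 72.2, 61.2, 60.2 and 60.6 CPM in DIZE. Only DIZE 1 reached into the vehicle range, above vehicle 2 and vehicle 3, and the other DIZE libraries lay below all 4 vehicle libraries. The means were 87.9 ± 24.4 and 63.6 ± 5.75 CPM, a DIZE mean of 0.722 times the vehicle mean, with a log2 fold change of -0.47 ± 0.17 (edgeR adjusted p = 0.183).

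C1qc was at 114.4, 71.6, 69.9 and 78.9 CPM in vehicle and at 70.4, 64.6, 65.4 and 62.0 CPM in DIZE. Again DIZE 1 alone reached the vehicle range, just above vehicle 3. The means were 83.7 ± 20.9 and 65.6 ± 3.53 CPM, a DIZE mean of 0.783 times the vehicle mean, with a log2 fold change of -0.35 ± 0.16 (edgeR adjusted p = 0.248).

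Much of the size of these differences rested on vehicle 1. Without it the log2 fold changes were -0.21 for C1qa, -0.27 for C1qb and -0.16 for C1qc. Unadjusted p under 0.05 was then left for C1qb alone (edgeR unadjusted p = 0.0443, adjusted p = 0.29). The sign stayed negative for all 3 genes in each of 21 alternative fits, with adjusted p from 0.0948 to 0.437 for C1qa, from 0.111 to 0.349 for C1qb and from 0.174 to 0.435 for C1qc.

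**Figure D2:**
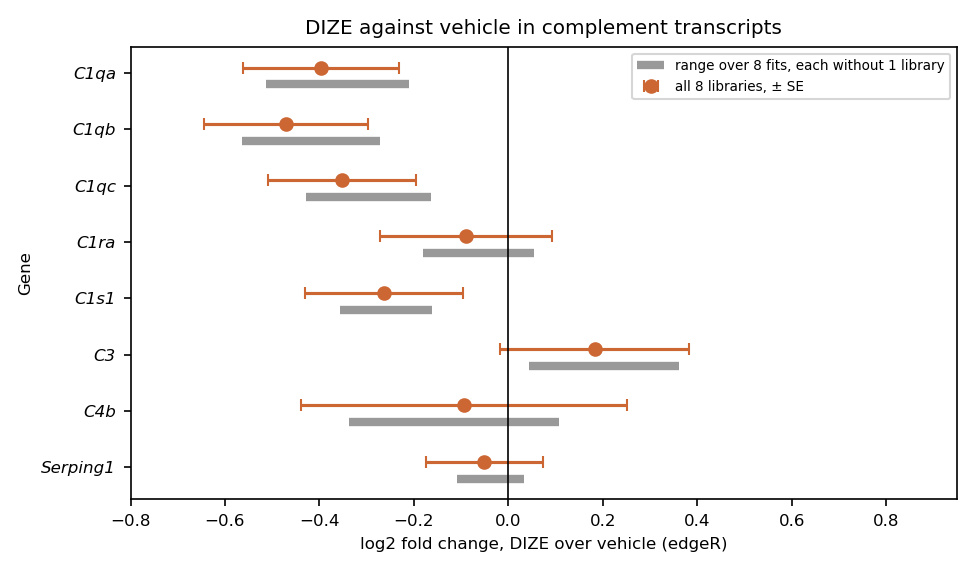
Log2 fold change of DIZE over vehicle (horizontal axis) for the 8 tested complement genes, as a point with its standard error from all 8 libraries and a grey bar for the range over 8 fits that each leave out 1 library. The bars of the C1q genes, such as -0.56 to -0.27 for C1qb, stay below 0, and those of C1ra, C4b and Serping1 cross it.

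The 3 C1q genes kept nearly fixed proportions in every library. C1qa over C1qb, as a ratio of CPM that is not corrected for length, ran from 0.819 to 0.998, and C1qc over C1qb from 0.88 to 1.09. Over the 8 libraries Pearson's r on log2(CPM + 1) was 0.96 for C1qa with C1qb, 0.947 for C1qa with C1qc and 0.976 for C1qb with C1qc. Without vehicle 1 these were 0.856, 0.773 and 0.966. The libraries share their preparation and the scaling, so r is a description.

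Summed over the 3 genes, C1q was at 342.0, 199.4, 209.7 and 245.3 CPM in vehicle and at 205.4, 185.4, 181.2 and 180.5 CPM in DIZE. The macrophage markers moved in the same direction. All 14 were detected in every library, and 12 of the 14 were lower in DIZE (9 of 14 without vehicle 1). At an unadjusted p under 0.05, 1 was lower, beside 10.3% of all tested genes, and 0 passed the adjusted threshold by edgeR or DESeq2. The summed CPM of the 14 markers spanned 322.8 to 476.4 for vehicle against 285.8 to 357.5 for DIZE. C1q over that sum was 0.718, 0.618, 0.586 and 0.726 in vehicle and 0.607, 0.519, 0.634 and 0.58 in DIZE, with means of 0.662 ± 0.0705 and 0.585 ± 0.0494. The groups overlapped in that ratio as they did in C1q itself. The part of the macrophage transcripts in the C1q difference was not tested.

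The ratio depended on which leukocyte gene stood below the line. C1q over Csf1r, the receptor gene for the macrophage growth factor CSF1, was 4.38 in vehicle 1 and 1.85 to 2.95 in the other libraries. Csf1r itself hardly varied, from 76.8 to 97.6 CPM, and had a log2 fold change of 0.03. C1q over Ptprc, which encodes the common leukocyte antigen CD45, ran from 13.97 to 19.7, and vehicle 1 lay inside that range at 15.1. Its means were 15.8 ± 2.65 in vehicle and 17.1 ± 1.34 in DIZE, the opposite order to the ratio over the macrophage sum. Ptprc is in none of the marker lists, and it was the gene most like C1qa over these same libraries (r 0.972). A narrow range of C1q over Ptprc, with vehicle 1 inside it, follows from that likeness and is no separate evidence. The mannose receptor gene Mrc1 was also highest in vehicle 1, at 114.7 CPM against 45.9 to 68.3 CPM elsewhere. So was Adgre1, which encodes the macrophage marker F4/80, at 42.8 CPM against 16.7 to 28.4 CPM elsewhere. Most of the macrophage markers peaked in that library, but not all. Lyve1 peaked in DIZE 2 at 79.6 CPM, Cx3cr1 in vehicle 3 at 7.51 CPM and Csf1r in DIZE 4 at 97.6 CPM.

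**Figure D3:**
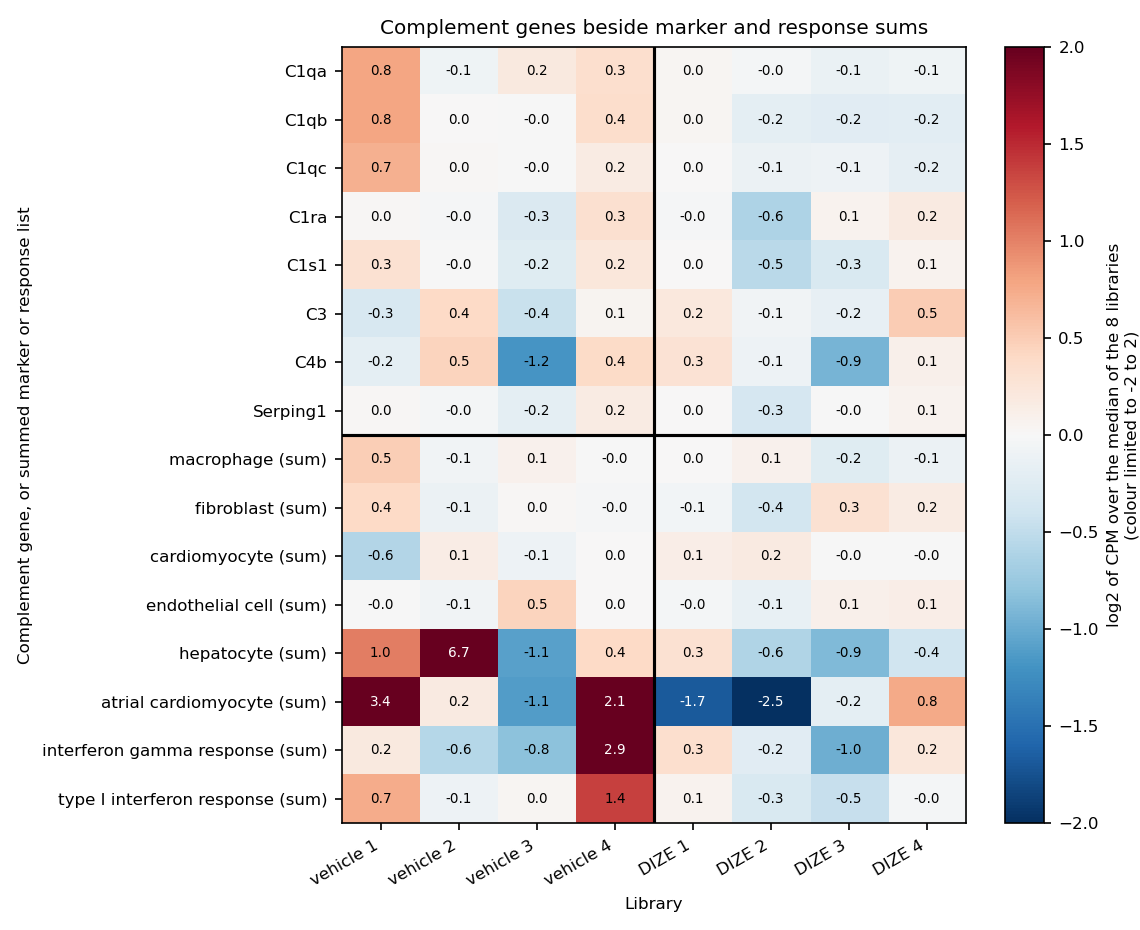
Log2 of the level in each library over the median of the 8 libraries, for the 8 tested complement genes (upper rows) and for summed marker and response lists (lower rows), with colour limited to -2 to 2 and the value printed in each cell. Vehicle 1 is high for C1q and macrophage markers, vehicle 2 for hepatocyte markers and vehicle 4 for interferon gamma response genes.

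C1ra (ENSMUSG00000055172, chromosome 6 from 124512405 to 124523443, plus strand) was at 30.4, 29.5, 24.4 and 37.4 CPM in vehicle and at 29.3, 19.5, 31.5 and 33.9 CPM in DIZE. DIZE 2 was lowest and vehicle 4 highest, with the groups interleaved. The means were 30.4 ± 5.33 and 28.6 ± 6.35 CPM, with a log2 fold change of -0.09 ± 0.18 (edgeR adjusted p = 0.818). The sign turned without vehicle 4 (0.03) or without DIZE 2 (0.05).

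C1s1 (ENSMUSG00000038521, chromosome 6 from 124530345 to 124542359, minus strand) was at 34.4, 27.7, 23.6 and 32.7 CPM in vehicle and at 27.8, 19.2, 22.4 and 29.2 CPM in DIZE. DIZE 2 was again lowest, and DIZE 2 and DIZE 3 lay below all vehicle libraries. The means were 29.6 ± 4.89 and 24.7 ± 4.65 CPM, with a log2 fold change of -0.26 ± 0.17 (edgeR adjusted p = 0.401). The sign held in all 21 alternative fits, from -0.36 to -0.16, and was -0.16 without DIZE 2.

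Both proteases have a near-identical copy next to them on chromosome 6, and reads can be split between copies. C1ra and its copy C1rb share 97.98% of aligned transcript bases, and 26.1% of the stretches of C1ra as long as a read of 151 bases are found unchanged in C1rb. For C1s1 and C1s2 the identity was 95.94%, with 2.83% of such stretches shared. C1rb was at 2.26, 2.18, 1.48 and 1.77 CPM in vehicle and at 0.855, 0.789, 1.11 and 1.37 CPM in DIZE. It had every DIZE library below every vehicle library, as did 5.26% of all tested genes. Its log2 fold change was -0.87 ± 0.29 (edgeR adjusted p = 0.157) on 106 reads in all, so the level is imprecise. C1rb made up 4.51% to 6.92% of the C1ra and C1rb reads in vehicle and 2.83% to 3.9% in DIZE. C1s2 had a log2 fold change of -0.51 ± 0.26 (edgeR adjusted p = 0.307). With the copies summed, the changes were -0.13 for C1ra and -0.29 for C1s1.

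Serping1 (ENSMUSG00000023224, chromosome 2 from 84765387 to 84775444, minus strand), the brake on C1r and C1s, had the lowest coefficient of variation of the tested components within vehicle, 10.3%. It was at 227.8, 218.0, 195.1 and 250.2 CPM in vehicle and at 224.3, 176.8, 223.3 and 235.9 CPM in DIZE. DIZE 2 was lowest and vehicle 4 highest, as for C1ra. The means were 222.8 ± 22.9 and 215.1 ± 26.1 CPM, with a log2 fold change of -0.05 ± 0.12 (edgeR adjusted p = 0.855). The sign turned without vehicle 4 (0.01) or without DIZE 2 (0.03).

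C1ra and Serping1 followed each other closely over the libraries, although they lie on different chromosomes. Pearson's r was 0.989 over the 8 libraries and 0.992 without vehicle 1, and of 10904 genes with a mean of at least 5 CPM each was the other's closest match. Serping1 over C1ra ran from 6.7 to 9.08 as a ratio of CPM, with the highest value in DIZE 2. C1s1 had r of 0.83 with Serping1 and of 0.774 with C1ra. Their correlations with the C1q genes were lower, from 0.173 for C1qa with C1ra to 0.753 for C1qb with C1s1.

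Fibroblast markers, from the cells known to make these proteins, were all detected in every library. Of the 12 markers 10 were lower in DIZE, 4 of them at an unadjusted p under 0.05, beside 10.3% of all tested genes. By edgeR 0 passed the adjusted threshold and by DESeq2 3 did, but DESeq2 called far more genes over the whole table. The summed CPM of the 12 markers spanned 3437 to 4895 for vehicle against 2906 to 4594 for DIZE. Without Gsn, the most abundant of the 12, the sum spanned 1674 to 2852 CPM for vehicle against 1452 to 2011 CPM for DIZE. DIZE 2 had the lowest sum, as it had the lowest C1ra, C1s1 and Serping1. C1ra plus C1s1 came to 1.17% to 1.91% of the fibroblast sum with Gsn, highest in vehicle 4 and lowest in DIZE 3. The lowest place depends on Gsn being in the sum. The part of fibroblast transcripts in the levels of these genes was not tested.

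**Figure D4:**
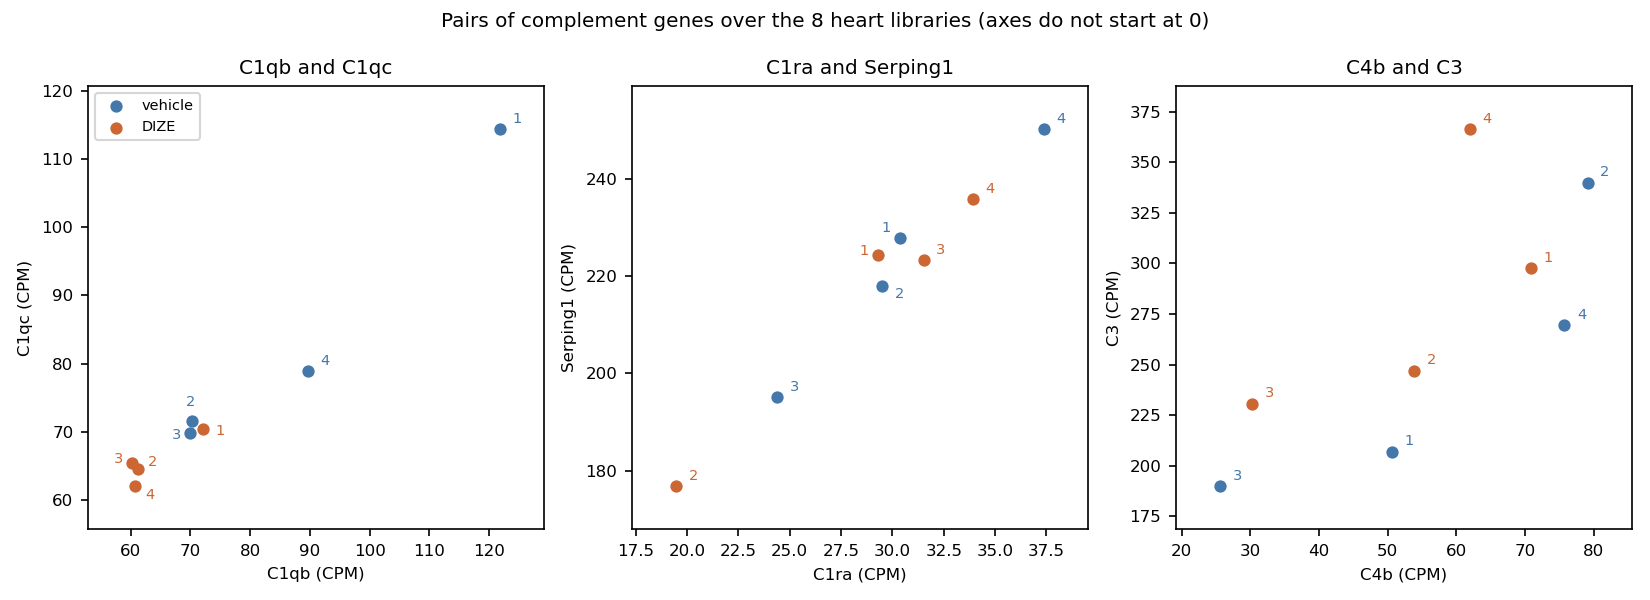
CPM of 1 complement gene against another over the 8 libraries (axes do not start at 0), for C1qb and C1qc, C1ra and Serping1, and C4b and C3, with library numbers beside the points. Vehicle 1 stands alone in the first panel, DIZE 2 and vehicle 4 are the ends of the second (r 0.989), and the third is looser (r 0.761).

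C4b (ENSMUSG00000073418, chromosome 17 from 34728380 to 34743882, minus strand) varied more than any other tested component. It was at 50.6, 79.1, 25.6 and 75.7 CPM in vehicle and at 70.8, 53.8, 30.3 and 62.0 CPM in DIZE. Vehicle 3 and DIZE 3 were low and the groups overlapped throughout. The means were 57.8 ± 24.9 and 54.2 ± 17.4 CPM, with a log2 fold change of -0.09 ± 0.34 (edgeR adjusted p = 0.908). The sign turned without vehicle 2 (0.09), without vehicle 4 (0.07) or without DIZE 3 (0.11), was -0.34 without vehicle 3, and was positive with vehicle 1 and vehicle 2 both left out (0.09).

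C4a, the copy of C4b on the same chromosome from 34809092 to 34823464, encodes the sex-limited protein in the mouse and is 96.14% identical to C4b over the aligned transcripts. Of the stretches of C4b as long as a read, 8.17% are unchanged in C4a. The 60 bases below, from the longest GENCODE transcripts, show where reads of the copies can be told apart, with the 13 bases that differ in capitals. They are positions 2761 to 2820 of the C4b transcript and 2755 to 2814 of the C4a transcript.

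C4b: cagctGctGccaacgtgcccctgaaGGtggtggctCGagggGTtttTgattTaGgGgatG

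C4a: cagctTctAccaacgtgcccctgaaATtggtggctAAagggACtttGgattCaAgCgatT

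C4a was low at 1.54, 2.18, 1.07 and 2.84 CPM in vehicle and at 2.69, 1.97, 0.707 and 2.73 CPM in DIZE. It took 2.28% to 4.22% of the reads of both copies, so C4b carried nearly all of this signal in both groups. Its log2 fold change was 0.06 ± 0.42 (edgeR adjusted p = 0.954), and the sum with C4b gave -0.09.

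C3 (ENSMUSG00000024164, chromosome 17 from 57203970 to 57228136, minus strand), the hub where the pathways meet, was the only tested component with a higher mean in DIZE. It was at 207.0, 340.0, 189.9 and 269.5 CPM in vehicle and at 297.6, 247.0, 230.7 and 366.5 CPM in DIZE. Vehicle 2 and DIZE 4 were the highest of their groups and the groups overlapped. The means were 251.6 ± 68.2 and 285.5 ± 61.1 CPM, with a log2 fold change of 0.18 ± 0.20 (edgeR adjusted p = 0.643). The sign stayed positive in each of 21 alternative fits. Without vehicle 2, the library with liver transcripts, it was 0.36 (edgeR adjusted p = 0.275), and it was 0.10 without vehicle 1, 0.07 without vehicle 3 and 0.04 without DIZE 4.

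C3 and C4b, both of which the liver makes in quantity, were each at their vehicle maximum in vehicle 2. Albumin transcripts (Alb) were at 1348 CPM there and at 0 to 6.38 CPM in the other libraries. The hepatocyte gene Serpina1a was at 18.3 CPM in vehicle 2 and had 0 reads in each of the others. In the 3 other vehicle libraries C3 ran from 189.9 to 269.5 CPM and C4b from 25.6 to 75.7 CPM, with hepatocyte sums of 8.72 to 37.6 CPM. C3 and C4b had r of 0.761 with each other and C3 over C4b ran from 3.56 to 7.61, highest in DIZE 3 and vehicle 3. The r of C3 was -0.524 with C1qa, -0.357 with C1qb and -0.421 with C1qc, and -0.366, -0.021 and -0.113 without vehicle 1.

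Cfb (ENSMUSG00000090231, chromosome 17 from 34856374 to 34862518, minus strand) had 1 read in vehicle 2, 1 in DIZE 2 and 0 in the other libraries, and was not tested. A count of 0 allows up to 0.293 to 0.402 CPM, depending on the library, for counting error only. No difference was detectable at this depth. This listing comes with a limit: 79.5% of the exonic bases of Cfb (2246 of 2825) are shared on the same strand with Gm20547, a gene model that also takes in part of C2 and has 0 reads in every library. Reads in the shared bases can be set aside as ambiguous when genes are counted, and no source used here gives the settings. C2, with 42.8% of its exonic bases in the same model, had 46 reads in all and was not tested either.

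The rest of the system was read from 46 further complement genes grouped by role, of which 27 had enough reads. Of those, 15 were lower and 12 higher in DIZE, 4 of them lower and 1 higher at an unadjusted p under 0.05, and none changed by edgeR after adjustment, while DESeq2 called 1 and limma-voom 0. The matching shares of all tested genes at that p were 10.3% lower and 9.11% higher in DIZE. With the 9 components added, 22 of 35 tested complement genes were lower, beside 51.81% of all tested genes. When libraries were scaled on the total count alone, 30 of 35 were lower, and the median log2 fold change of all tested genes was -0.08. With TMM factors the median of the 35 was -0.07, beside -0.01 over all genes.

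**Figure D5:**
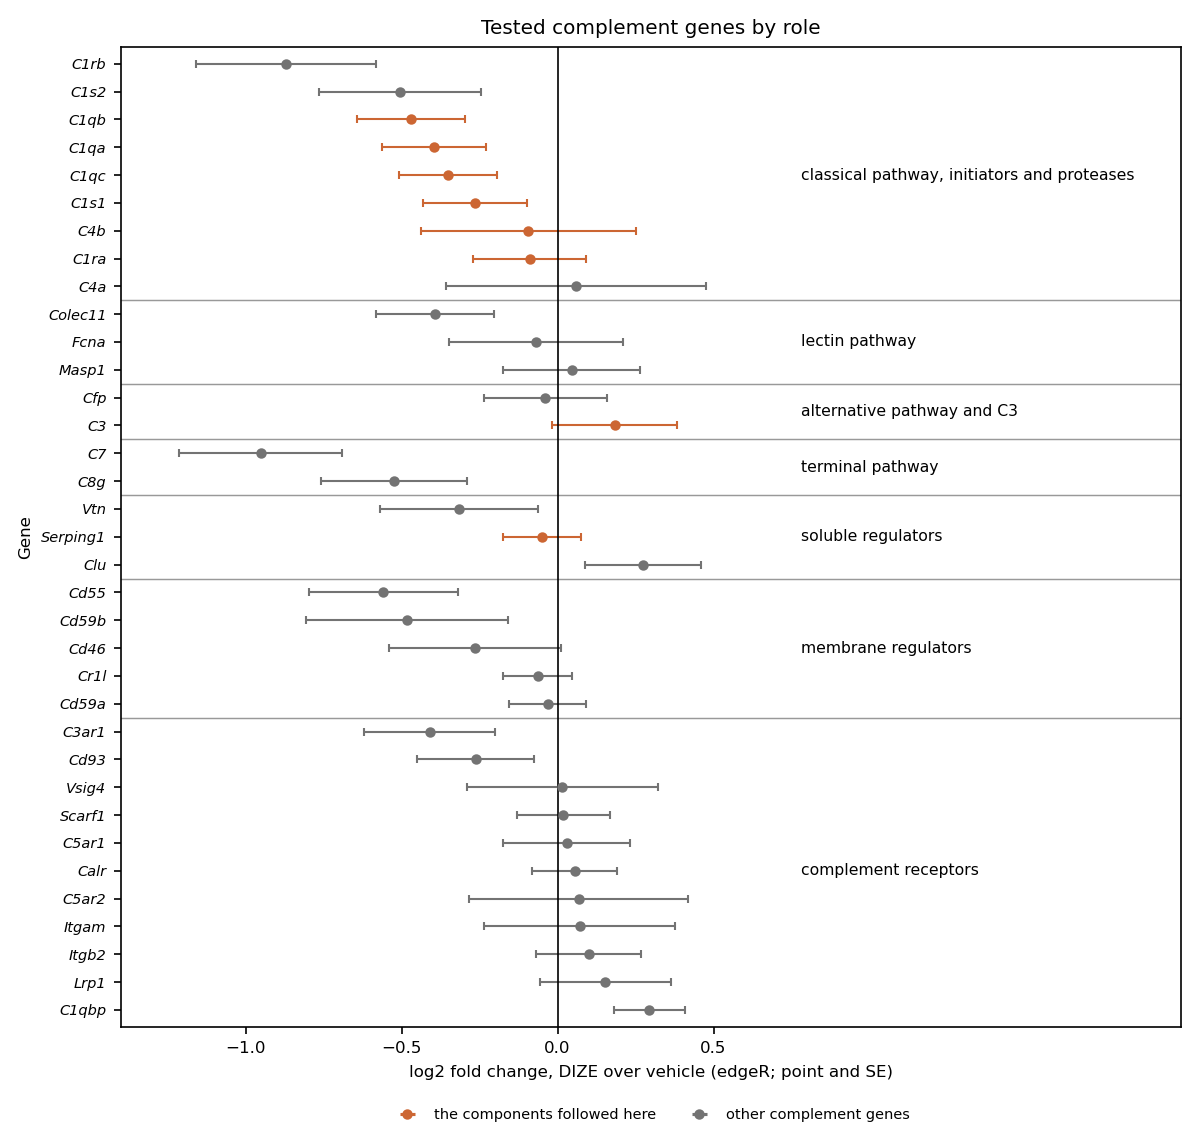
Log2 fold change of DIZE over vehicle with its standard error (horizontal axis) for the 35 tested complement genes in 7 roles, the components followed here in orange. Most classical, terminal and membrane regulator genes lie left of 0, with C7 at -0.95, and 9 of 11 receptor genes lie right of it, a split that turns to 3 of 11 when libraries are scaled on the total count alone.

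The terminal pathway, which builds the membrane attack complex, had few reads, with 2 of its 7 genes tested. C7, which anchors the complex to the membrane, was at 8.82, 4.49, 7.24 and 5.49 CPM in vehicle and at 3.54, 2.63, 2.83 and 4.39 CPM in DIZE. It had every DIZE library below every vehicle library, as did 5.26% of all tested genes. Its log2 fold change was -0.95 ± 0.26 (edgeR adjusted p = 0.118), and -1.11 to -0.77 with a library left out. DESeq2 called it (adjusted p = 0.036), the only complement gene DESeq2 called among the 606 genes it called in all. C8g, a lipocalin-type subunit of C8, averaged 7.3 CPM under vehicle and 5.03 under DIZE (log2 fold change -0.52 ± 0.23, edgeR adjusted p = 0.248). It was highest in vehicle 2, the library with liver transcripts, at 10.8 CPM, and the log2 fold change was -0.28 without it.

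In the lectin pathway, which starts from sugars rather than antibody, 3 of 8 genes were tested. Colec11, a soluble collectin, averaged 41.3 ± 9.44 CPM for vehicle and 31.4 ± 6.66 CPM in DIZE (log2 fold change -0.39 ± 0.19, edgeR adjusted p = 0.284), and the log2 fold change was -0.25 without vehicle 1. The protease gene Masp1 (log2 0.04 ± 0.22) and the ficolin gene Fcna (-0.07 ± 0.28) differed by less than the spread between libraries, and both signs turned when some single libraries were left out. Properdin, the stabiliser of the alternative convertase encoded by Cfp, averaged 11.3 and 11.1 CPM (log2 -0.04 ± 0.20). The sign for Cfp turned without vehicle 4, DIZE 3 or DIZE 4.

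Among soluble regulators, Clu encodes clusterin, an inhibitor of the membrane attack complex. Clu was lowest in vehicle 1 at 408.6 CPM, with 720.3 to 802.8 CPM in vehicle 2 to 4 and 745.1 to 882.2 CPM in DIZE (log2 fold change 0.27 ± 0.19, edgeR adjusted p = 0.436). Without vehicle 1 the log2 fold change of Clu was 0.09. Vtn, which encodes vitronectin, had a log2 fold change of -0.32 ± 0.25 (edgeR adjusted p = 0.514). It was highest in vehicle 2, at 65.5 CPM, and had -0.11 without that library and -0.51 without DIZE 3.

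Membrane regulators, which protect host cells from complement, were lower in DIZE in 5 of 5 tested genes with 1 at an unadjusted p under 0.05, in 3 of 5 once GC and length trends were removed, and in 4 of 6 without vehicle 1. Cd55, the decay accelerating factor, averaged 21.4 ± 7.63 CPM for vehicle and 14.5 ± 2.56 CPM in DIZE (log2 fold change -0.56 ± 0.24, edgeR adjusted p = 0.232). Vehicle 1 was highest at 30.7 CPM, and without it the log2 fold change was -0.33. Cd59b (-0.48 ± 0.32) and Cd46 (-0.27 ± 0.28) were low and imprecise, with Cd59b at -0.26 without DIZE 2 and -0.86 without DIZE 3, and Cd46 at -0.05 without vehicle 3. Cr1l, which encodes the mouse regulator Crry, averaged 85.5 and 81.9 CPM (log2 -0.06 ± 0.11), which became 0.08 with those trends removed.

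Of the receptor genes, 9 of 11 tested were higher in DIZE and 1 of those at an unadjusted p under 0.05, but 3 of 11 were higher when libraries were scaled on the total count alone. That scaling also moved the median log2 fold change of all tested genes from -0.01 to -0.08. With 1 library left out, 5 of 11 were higher without vehicle 1, and 6 of 11 without vehicle 2, vehicle 3, DIZE 1 or DIZE 2. C1qbp, which encodes a mitochondrial protein that can bind the heads of C1q, was at 122.9, 163.0, 132.9 and 134.9 CPM in vehicle and at 163.1, 169.2, 181.4 and 165.0 CPM in DIZE. Its log2 fold change was 0.29 ± 0.11 (edgeR adjusted p = 0.198). DIZE 1 lay just above vehicle 2, so the groups did not overlap, and 7.17% of all tested genes had every DIZE library above every vehicle library. C3ar1, the receptor for the C3a fragment, averaged 17.1 ± 5.85 CPM for vehicle and 12.9 ± 0.242 CPM in DIZE (log2 fold change -0.41 ± 0.21, edgeR adjusted p = 0.304), and -0.15 without vehicle 1. Cd93 (-0.26 ± 0.19) and Lrp1 (0.15 ± 0.21) differed by less than the spread between libraries, and had -0.03 without vehicle 3 and -0.03 without vehicle 1, respectively.

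Of the 19 untested non-members, 8 were found almost only in vehicle 2. Mbl1 had 21 reads there, Mbl2 32, Hc 73, C8a 30, C8b 16, C9 30, Cfi 89 and C4bp 90, and the 7 other libraries together held between 0 and 9 reads of each. These genes encode plasma complement proteins of the liver, and the hepatocyte markers stood in the same library. Cfd, the factor D gene of fat tissue, had 33 reads in vehicle 1 and 0 to 10 in each other library.

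Interferon response genes were set beside the components because interferons are known inducers of C1r, C1s, the C1 inhibitor, C4 and factor B. In vehicle 4, where the interferon gamma response sum was 3022 CPM, C1ra and Serping1 were at their highest at 37.4 and 250.2 CPM. C1s1 and C4b were second highest there, at 32.7 and 75.7 CPM. So were C1qa, C1qb and C1qc, at 76.8, 89.7 and 78.9 CPM. C3 was at 269.5 CPM there, below vehicle 2, DIZE 1 and DIZE 4. Cfb had 0 reads, but reads in 79.5% of its exonic bases can be set aside as ambiguous. Without vehicle 4, C1s1 had -0.21 and C3 0.22. All 15 interferon gamma response genes were lower in DIZE with all libraries, but 6 of 15 were lower without vehicle 4 and 2 of 15 with the title number as a replicate block. Vehicle 4 and DIZE 3 each have a title number that no other library shares. That block therefore takes both out of the comparison and is no separate check on vehicle 4. With all libraries, 1 of the 15 was at an unadjusted p under 0.05 and 0 were past the adjusted threshold by edgeR or DESeq2. Of the type I response genes 14 of 14 tested were lower, 11 at an unadjusted p under 0.05, beside 10.3% of all tested genes. By edgeR 0 passed the adjusted threshold and by DESeq2 3 did, but DESeq2 called far more genes over the whole table. The 11 became 3 without vehicle 4, 4 without DIZE 3, 6 without vehicle 1 and 3 with that block, with 14 of 14 lower each time. The part of either response in the levels of the components was not tested.

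Among all ranked genes, those most like each component over the 8 libraries came from many functions, and the lists are descriptions. For C1qa they were Ptprc (r 0.972), Armcx3, Camk1d, Pde1a and Sptlc2, and for C1qc Cd53, a leukocyte tetraspanin gene (r 0.991), Snhg1, Npm1, C1qb and Cd9. C1qb was nearest to Ccdc34 (r 0.983), C1qc, Ptgfr, Fibin and Cd53. C1s1 was nearest to Tspan4 (r 0.978), Nup37, Cebpd, B2m and Klf9, and C1ra after Serping1 to Meg3, Gmppb, Tpm2 and Dock1. Serping1 had C1ra, Gmppb, Meg3, Tpm2 and Gm13835. For C3 the list was Tada2a (r 0.961), Errfi1, Xrcc3, Pecr and Setd6, and for C4b Errfi1 (r 0.92), Sema4a, Zfp235, Srsf5 and Gzmm. Without vehicle 1 the leading r was 0.931 or above for each component, for example 0.98 for C1qa with Ptprc and 0.966 for C1qc with Cd53.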

How the data were processed

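Poly(A) RNA from hearts of db/db mice was sequenced as stranded read pairs in 8 libraries, 4 given vehicle and 4 given DIZE, per the labels' protocols. The values the authors deposited are read counts for Ensembl genes, in whole numbers and not normalized. Alignment and counting tools listed by the submitters' processing notes are HTSeq 0.6.1p1 and STAR 2.7.3, beside edgeR, R 4.1 and the build mm10. Settings, annotation release and strand mode: not given in the sources used here. Columns were tied to samples by the labels' descriptions, and no 2 libraries agreed within sampling noise (chi-square per degree of freedom of 5.5 or more).

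From these counts, edgeR 4.0.16 in R 4.3.3 fitted the whole table (quasi-likelihood, robust, two-sided, TMM factors, no covariate), with genes kept at a minimum count of 10 and minimum total of 15. P-values were adjusted by Benjamini-Hochberg over 13648 genes. The fit was also run on simulated data that took their means, library sizes and dispersions from these libraries. Symbols, positions and exonic lengths came from GENCODE M21 (GRCm38, the assembly of mm10) and were matched for 55141 genes. Promoters came from RefSeq, GRCm38.p6. Depth was 7447664 to 10161623 counts, so levels near 1 CPM stand for few reads.

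The members and gene lists were chosen with earlier results of these data known. All 9 components are named with each library's value, then up to 4 other genes per role list with the smallest unadjusted p and a mean of at least 1 CPM, copies and overlapping genes, the 5 genes most like each component, and up to 3 genes per marker list. Cfd, Lyve1, Cx3cr1 and the genes seen almost only in vehicle 2 were named after their values were seen. The lists of adipocyte, endothelial, neutrophil and B cell markers served as checks. A gene of the role lists is not reported here and was left out of their counts.

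Alternatives were DESeq2 1.42.0, limma-voom (limma 3.58.1), other size factors, other filters, the title number or form as a block, removal of GC and length trends, counts summed with copies, and each library left out. Leaving out vehicle 1 and vehicle 2 together, and the role counts under every fit, were added after the data were examined.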

Additional observations from a re-analysis of the deposited data

Results flagged for a closer look

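Of 103 groups of 4 libraries, over components, other complement genes at a mean of at least 1 CPM and marker sums, 14 held a library whose gap to its nearest neighbour was large for the range of the group (Dixon's ratio). Chance gives about 1 in 20 such groups for independent normal values. A group with 1 read against 0 is always flagged, and the liver transcripts of vehicle 2 recur over several groups. The count of 14 therefore cannot be judged against that rate. Among the components, C1qb in DIZE 1 was at 72.15 CPM, with 60.23 to 61.18 CPM in DIZE 2 to 4. Cfb was at 0.1283 CPM in vehicle 2 and 0.1316 CPM in DIZE 2, which is 1 read each, against 0 elsewhere.

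Vehicle 2 stood out for Hc, which encodes C5, at 9.363 CPM (0.1026 to 0.1962 in the other vehicle libraries), for Cfi, the factor I gene, at 11.41 CPM (0.1341 to 0.2052), for C4bp at 11.54 CPM (0 elsewhere) and for the hepatocyte sum at 1965 CPM (8.716 to 37.56). Vehicle 1 stood out low for Calr at 251 CPM (338.9 to 342.9) and high for the neutrophil sum at 5.952 CPM (1.373 to 1.743). Vehicle 3 stood out for Cd93 at 169.4 CPM (95.55 to 106.2) and for the endothelial sum at 1615 CPM (1128 to 1181). Vehicle 4 stood out for the interferon gamma response sum at 3022 CPM (230.1 to 467.1).

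Within DIZE, library 2 stood out for Fcna at 7.631 CPM (3.84 to 4.485) and for Hc at 0.1316 CPM, again 1 read, against 0.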

How the results depend on the processing

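Over all results and alternatives, 667 values stayed the same, 24 moved and 33 fold changes turned sign. A further 1 passed the threshold only under an alternative, which was C7 under DESeq2 (log2 -0.95, adjusted p = 0.036). A fold change stayed the same if it kept its direction and side of the threshold, and a count if it moved by at most 1.5 times. Ratios of group means stayed the same if they moved by less than the SD between libraries, and r if it moved by less than a set amount. The count of components past the adjusted threshold was 0 under every alternative.

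The number of genes called over the whole table, 5 with edgeR, was 0 on the total count only, 606 with DESeq2, 386 with no filter, 9 with the title form as a block, 41 with GC and length trends removed and 65 with vehicle 1 and vehicle 2 both left out. With a library left out it ran from 0 to 240, the highest without vehicle 2. The cause was not tested.

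Components at an unadjusted p under 0.05, 3 with all libraries, ran from 1 to 3 with a library left out, and were 1 without vehicle 1, vehicle 4, DIZE 2, DIZE 3 or DIZE 4. Components with a negative log2 fold change, 7 of 8, ran from 4 to 7, with 4 without vehicle 4. Complement genes past the adjusted threshold were 1 under DESeq2, and those lower were 37 of 54 with no filter, where more genes were tested.

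Deviations of same-numbered libraries correlated at -0.142 to 0.0156. Title number 4 recurs within each group and some numbers have no partner, so these values cannot decide whether title numbers pair the samples. With the title number as a replicate block, which takes vehicle 4 and DIZE 3 out of the comparison, 0 genes were called. In that fit 1 component had an edgeR unadjusted p under 0.05, and log2 fold changes were 0.26 for C4b, -0.18 for Masp1 and 0.11 for Cfp. On the total count only, C4a was -0.00022 and Masp1 -0.0164. With limma-voom C4a was -0.0415. With GC and length trends removed C4a was -0.0674 and Cr1l 0.0806. With vehicle 1 and vehicle 2 both left out C4b was 0.0859, C4a -0.00788, Fcna 0.28 and Lrp1 -0.14.

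Signs also turned with 1 library left out. The ranges of log2 fold change were -0.34 to 0.11 for C4b (0.09, 0.07 and 0.11 without vehicle 2, vehicle 4 and DIZE 3), -0.18 to 0.0538 for C1ra (0.0258 and 0.0538 without vehicle 4 and DIZE 2) and -0.11 to 0.033 for Serping1 (0.00973 and 0.033 without the same libraries). They were -0.13 to 0.36 for C4a, with -0.04, -0.12, -0.10 and -0.13 without vehicle 1, vehicle 3, DIZE 1 and DIZE 4. For Fcna the range was -0.33 to 0.15 (0.15, 0.01 and 0.04 without vehicle 1, DIZE 1 and DIZE 3). For Masp1 it was -0.12 to 0.22 (-0.02, -0.04 and -0.12 without vehicle 1, DIZE 2 and DIZE 3). Cfp ran from -0.21 to 0.0943 (0.0246, 0.0383 and 0.0943 without vehicle 4, DIZE 3 and DIZE 4), and Lrp1 from -0.0338, without vehicle 1, to 0.27.

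Depth limits the low genes most: 3 counts stand for 0.293 to 0.402 CPM, so nothing can be said of Cfb below that level.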

Other observations

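Other cell types of the heart were read from marker lists beside the complement genes. The 7 endothelial markers, led by Cdh5 (the VE-cadherin gene), summed to 1128 to 1615 CPM in vehicle and 1070 to 1297 CPM in DIZE. Of the 7, 6 were lower in DIZE (4 of 7 without vehicle 3). At an unadjusted p under 0.05, 1 was lower, beside 10.3% of all tested genes, and 0 passed the adjusted threshold by edgeR or DESeq2. The 7 adipocyte markers, led by the fatty acid binding protein gene Fabp4, summed to 532.6 to 1001 CPM in vehicle and 521.0 to 802.1 CPM in DIZE. B cell and plasma cell markers, led by Ighm, summed to 10.7 to 21.3 CPM and 6.05 to 19.7 CPM. Neutrophil markers, led by S100a9, were lowest as a list, at 1.37 to 5.95 CPM and 1.82 to 7.08 CPM, with the highest value in DIZE 1. The groups overlapped in each of these 4 sums.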
